A study of Rattus norvegicus with 6 samples.

Results

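Collagen chains and the enzymes that modify, fold, trim and cross-link them were examined in rat Schwann cells after activation of the kinase Raf. The members were all array probe sets whose annotated symbol is a collagen chain name (Col, a number, a and a number). To these were added P4ha1, P4ha2, Plod1 to Plod3, Serpinh1, Lox, Loxl1, Loxl2, Pcolce, Bmp1 and P3h2 (formerly Leprel1). The annotation held 52 such genes of 14217 on the array, measured by 74 of 31042 probe sets. Of these, 41 were chains and 11 were enzymes or other processing proteins, and no probe set was listed for P3h2.

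The series has 6 arrays of primary Schwann cells, the glia of peripheral nerve, which were cultured from rat sciatic nerve. All cells in both groups carried an inducible RafER allele, in which Raf is fused to an estrogen receptor domain that tamoxifen switches on, and all were held in a serum-free minimal medium before treatment. The 3 vehicle cultures received ethanol, and the 3 tamoxifen cultures received tamoxifen for 24 h. The labels number the arrays of each group 1 to 3, and the submitters state that the experiment was done 3 times independently. That arrays of the same number come from 1 experiment is an inference, which the labels do not state. The sample labels describe the cells as coming from control or treated rats, whereas the submitters' design text places the treatment in culture, and the design text was followed. The promoter that drives RafER and the strain and age of the animals are not given in the sources used here. With no tamoxifen-treated cells lacking RafER among the arrays used, effects of the drug and of Raf cannot be told apart. The p-values measure the spread between these 3 cultures a group.

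A collagen is a trimer of chains built from repeats of glycine and 2 other residues, often proline and hydroxyproline. In the endoplasmic reticulum prolyl hydroxylases stabilise the triple helix, lysyl hydroxylases prepare cross-links and sugar attachment, and the chaperone Hsp47 holds the finished helix. Outside the cell, proteases remove the propeptides of fibrillar collagens, and lysyl oxidases start the cross-links. Schwann cells make type IV collagen for their basal lamina and type V collagen, while fibroblasts of the nerve supply much of the type I and type III collagen of the endoneurium.

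After tamoxifen, 15 of the 52 genes fell and 2 rose, by the probe set of highest mean signal for each gene (limma, Benjamini-Hochberg adjustment over all probe sets, adjusted p under 0.05), so that 17 changed where 31.2% of all genes did. Over all 14217 genes 17.3% fell and 13.9% rose, against 28.8% and 3.85% of the collagen genes. The median difference, tamoxifen minus vehicle, was -0.45 log2 units over the 52 genes and 0.01 over all genes. The falls were found in fibrillar, fibril-associated, type IV, type VIII and type XVIII chains and in 3 processing genes. The rises were in Col22a1 and in Plod3, a lysyl hydroxylase gene. Arrays of the groups did not overlap, with tamoxifen lower, for 22 genes (25.4% of all genes do this) and, with tamoxifen higher, for 3 (23.7% of all genes).

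**Figure D1:**
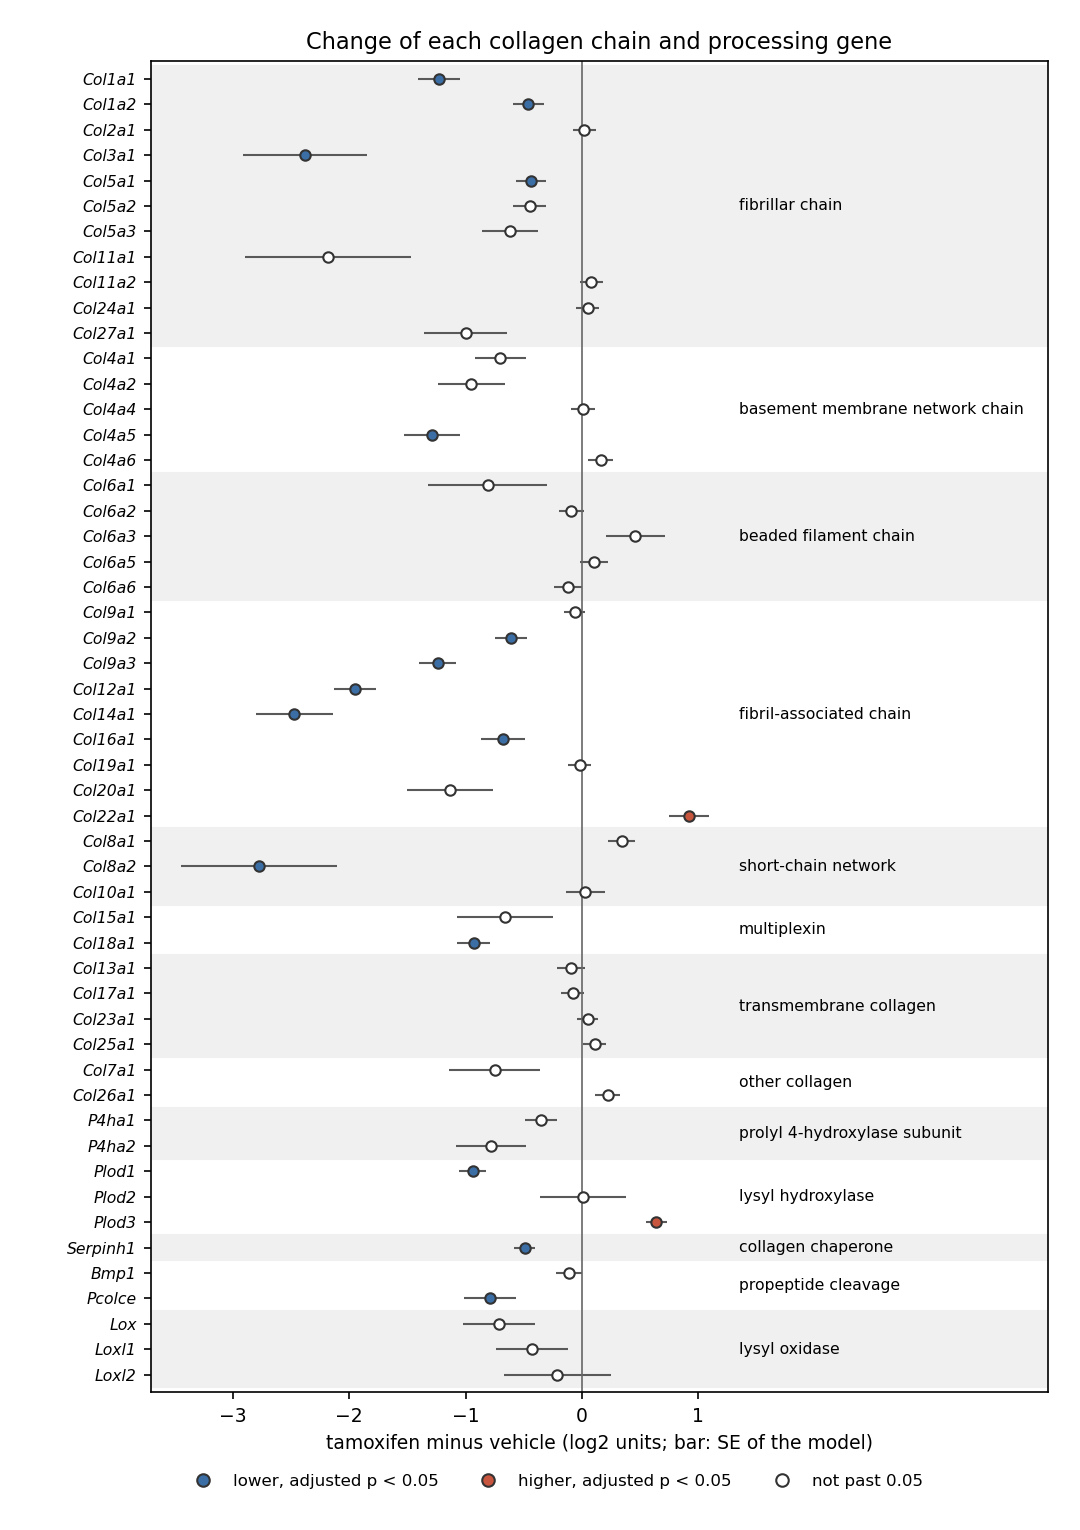
Difference of each of the 52 genes, tamoxifen minus vehicle, in log2 units on the horizontal axis, with the standard error of the model as bars and the genes grouped by role. Blue points fell and red points rose at an adjusted p under 0.05; the 15 blue points run from -2.77 (Col8a2) to -0.44 (Col5a1), and the 2 red points are Col22a1 at 0.92 and Plod3 at 0.64.

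Pairing of arrays by experiment number raised the number of falls. When experiment number was added as a block, 23 genes fell (44.2%), against 19.4% of all genes, and 2 rose, against 13.9%. That fit added Col4a1, Col4a2, Col5a2, Col7a1, Col11a1, Col20a1, Col27a1, Lox and P4ha2 and lost Col1a2 (adjusted p = 0.0530). In 30 of the 52 genes (57.7%) the tamoxifen array was below the vehicle array in all 3 experiments, as it was for 32.6% of all genes. Only 4 members (7.69%) were above vehicle in all 3, as were 31.8% of all genes.

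Several array facts stand beside these counts. Vehicle array 1 had weaker 5' signal, with a mean 3' minus 5' difference over 3 control transcripts of 0.84 log2 units, against 0.16 to 0.27 on the others. Without both arrays numbered 1, 8 collagen genes fell (15.4%), against 13.0% of all genes, so that most of the excess of falls over the background was gone. That fit used fewer arrays in both groups. Without vehicle array 1 alone 13 collagen genes fell, 12 of them among the original 15. With adjustment for the 3' minus 5' difference 13 fell, 11 of them among the original 15. The shares of all genes in these fits are not given here. Vehicle array 3 was more than 1 log2 unit above both other vehicle arrays for 5 of the 52 genes (9.62%), against 0.928% of all genes. Without it, 13 collagen genes fell (25.0%), against 14.9% of all genes, and 10 of the original 15 were among them.

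The Schwann cell label was checked against 10 measured markers, and all 10 were above the median signal of all probe sets (6.37). Among non-collagen fibroblast markers, 10 of 15 were below that median, among them Dcn, Lum and Pdgfra, which were at most 5.49 on every array. Ccdc80, Fbln1, Pi16, Mfap5 and Clec3b were not below that median. Macrophage markers were below it in 10 of 10 cases, endothelial markers in 8 of 9, smooth muscle and pericyte markers in 7 of 10 and perineurial markers in 3 of 8. The log2 of the summed fibroblast marker level was 10.23 and 10.78 on vehicle arrays 1 and 2, 13.01 on vehicle array 3 and 10.25 to 11.09 on the tamoxifen arrays. That of smooth muscle and pericyte markers was 9.87 and 9.96, then 11.47 on vehicle array 3, and 9.65 to 10.67 after tamoxifen. Among these markers 4 fibroblast genes rose (Fbln1 by 1.61, Pdgfra by 0.52, Twist2 by 0.49 and Pi16 by 0.37) and none fell. No smooth muscle, pericyte or macrophage gene passed. Of all genes 13.9% rose and 17.3% fell. Mfap5, named here after its values were seen, read 6.43, 6.51 and 10.81 in vehicle and 5.05 to 5.17 after tamoxifen (adjusted p = 0.121). Ccdc80, also so chosen, read 9.23, 10.11 and 12.53 in vehicle and 8.87, 9.04 and 10.48 after tamoxifen (adjusted p = 0.396). The Schwann markers, 3 of 10 of which fell, summed to 15.11 to 15.54 in vehicle and 13.81 to 14.55 after tamoxifen, so their groups did not overlap. Perineurial markers, of which 3 rose and 2 fell, summed to 12.14 to 12.31 in vehicle and 11.65 to 11.93 after tamoxifen. Endothelial markers, of which 1 fell, summed to 9.03 to 9.19 and 8.84 to 8.96. The median differences of single markers were 0.15 (perineurial) and 0.02 (endothelial). A few bright genes dominate such sums. On vehicle array 3, Tjp1 and Itgb4 made up 87.4% of the perineurial sum and Egfl7 and Esam 65.4% of the endothelial sum. Tagln and Pdgfrb made up 86.9% of the smooth muscle and pericyte sum there, and Cnp and S100b 61.2% of the Schwann sum. Macrophage sums were 8.37 to 8.46 and 8.39 to 8.48. The part of these cell types in the collagen results was not tested. In bulk RNA, fewer cells of a type and less RNA per cell cannot be told apart.

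The fibrillar chains form the banded fibrils of connective tissue. Of 11 measured, 4 fell (Col1a1, Col1a2, Col3a1 and Col5a1) and none rose, where 17.3% of all genes fell and 13.9% rose. Type I collagen, the main fibril former, joins a pair of alpha1 chains to an alpha2 chain. Col1a1 read 13.35, 12.87 and 13.23 log2 units in vehicle arrays 1 to 3 and 12.22, 11.71 and 11.82 in tamoxifen arrays 1 to 3. Tamoxifen was lower by more than 1 log2 unit in each experiment, and treated cultures held 42.6% of the vehicle level (difference -1.23 ± 0.18 SE, adjusted p = 0.00427, limma). The dimmer Col1a1 probe set gave -1.24. Col1a2 read 13.07, 13.18 and 13.54 in vehicle and 12.86, 12.74 and 12.81 after tamoxifen. Its fall to 72.6% was smaller (-0.46 ± 0.13, adjusted p = 0.0478), the other probe set (-0.42, adjusted p = 0.183) did not pass, and the call was lost without any 1 array except vehicle array 1 (adjusted p = 0.0782 to 0.143). By the probe set of highest mean, both chains were lower on every tamoxifen array than on every vehicle array, as were 25.4% of all genes. The groups of the other Col1a2 probe set overlapped.

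Type III collagen is a fibril former that accompanies type I in soft tissue. Col3a1 read 8.24, 7.88 and 9.91 in vehicle and 6.45, 5.81 and 6.64 after tamoxifen. The vehicle group was spread over 2.03 log2 units, with vehicle array 3 highest, but no tamoxifen array reached it. The difference was -2.38 ± 0.53 (adjusted p = 0.0185), or 19.2% of the vehicle level, and without vehicle array 3 it was -1.76 ± 0.27 (adjusted p = 0.0104). The call was lost without tamoxifen array 2 (adjusted p = 0.0702) and without both arrays numbered 1 (0.0607). The fibroblast marker sum was also highest on vehicle array 3, where Ccdc80 and Mfap5 made up 93.7% of it and 11 of the 15 markers were not above both other vehicle arrays; whether fibroblast RNA has a part in the Col3a1 level was not tested.

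Types V and XI regulate the width of fibrils, and type V is a known product of Schwann cells. Col5a1 read 11.0, 10.75 and 10.92 in vehicle and 10.64, 10.24 and 10.48 after tamoxifen, a fall to 73.8% (-0.44 ± 0.13, adjusted p = 0.0499). That call was lost without any 1 array except tamoxifen array 1 (adjusted p = 0.0590 to 0.137), and the dimmer probe set (-0.32, adjusted p = 0.330) did not pass. Col5a2, its partner, read 13.11, 13.33 and 13.63 in vehicle and 12.90, 12.84 and 12.97 after tamoxifen. The Col5a2 difference of -0.45 ± 0.14 narrowly missed the threshold (adjusted p = 0.0583), and both the block (0.0440) and the omission of vehicle array 1 (0.0208) took it past. Col5a3, a chain of narrower distribution, read 11.90, 11.63 and 11.94 in vehicle and 11.61, 11.31 and 10.68 after tamoxifen (-0.62 ± 0.24, adjusted p = 0.109), with tamoxifen array 3 lowest. By the probe set of highest mean, all 3 type V chains had non-overlapping groups with tamoxifen lower, as did 25.4% of all genes. The groups overlapped for the dimmer probe sets of Col5a1 and Col5a2, and the latter (-0.50, adjusted p = 0.174) did not pass.

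Col11a1 had the widest vehicle range of the members. It read 7.61, 7.38 and 10.02 in vehicle and 5.67, 6.0 and 6.81 after tamoxifen. Vehicle array 3 was again far above the others, and the difference of -2.18 ± 0.71 did not pass (adjusted p = 0.0677). Leaving that array out gave -1.33 ± 0.33 (adjusted p = 0.0407) and the block gave 0.0102, and the second probe set, at 5.74, 5.82 and 8.95 against 3.92, 3.65 and 4.22, fell by 2.90 (adjusted p = 0.0454). Col27a1 read 9.75, 9.11 and 8.90 in vehicle and 8.71, 8.55 and 7.52 after tamoxifen (-1.0 ± 0.36, adjusted p = 0.0908; 0.0126 with the block). Col2a1, the cartilage chain, Col11a2 and Col24a1 were below the median signal of all probe sets and differed by between 0.02 and 0.08, none past the threshold.

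**Figure D2:**
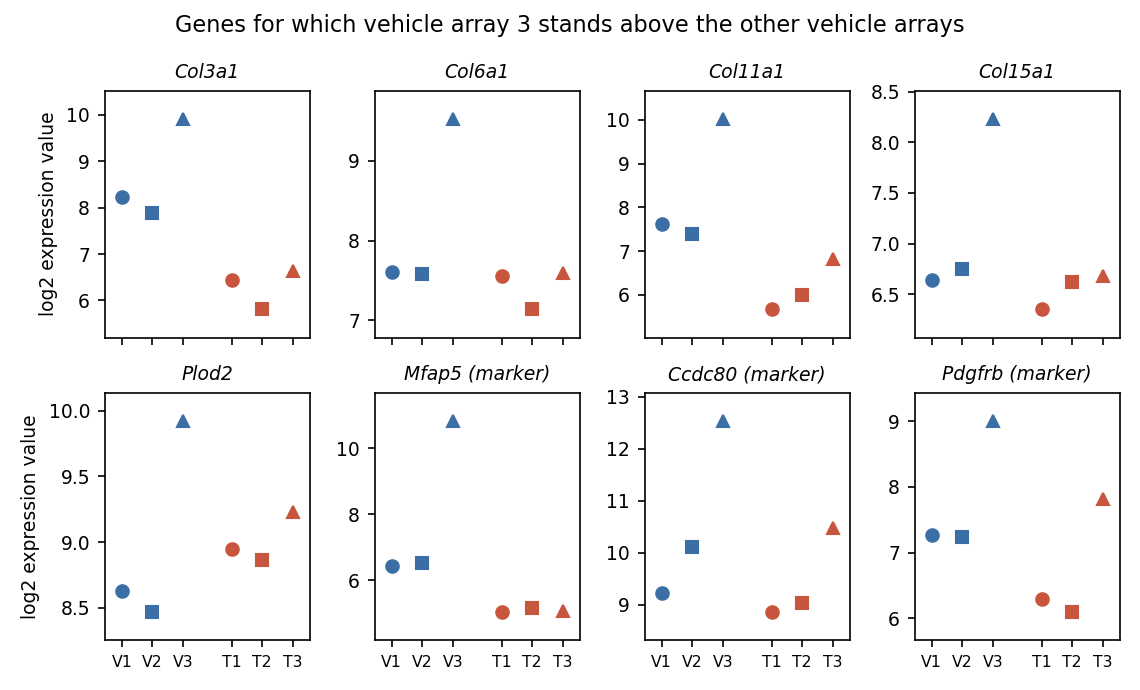
Log2 expression value (vertical axis, separate scale per panel) on vehicle arrays 1 to 3 (V1 to V3, blue) and tamoxifen arrays 1 to 3 (T1 to T3, red) for 5 collagen genes and 3 markers of fibroblasts or pericytes chosen because they were high on vehicle array 3; 4 of the 15 fibroblast markers were above both other vehicle arrays there. In each panel vehicle array 3 lies above the other vehicle arrays, for Col3a1 at 9.91 against 8.24 and 7.88 and for Mfap5 at 10.81 against 6.43 and 6.51.

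Type IV collagen is the network of basement membranes, including the basal lamina that Schwann cells lay down around axons. Its most common form holds a pair of alpha1 chains and an alpha2 chain, whose genes lie head to head. Col4a1 read 11.60, 11.53 and 12.26 in vehicle and 10.97, 10.93 and 11.40 after tamoxifen. Col4a2 read 10.98, 10 and 11.03 in vehicle and 9.78, 9.46 and 9.90 after tamoxifen. By the probe set of highest mean for both genes, every tamoxifen array lay below every vehicle array, as for 25.4% of all genes. The differences of -0.70 ± 0.22 and -0.95 ± 0.29 did not pass (adjusted p = 0.0663 and 0.0532), but both passed with the block (0.00752 and 0.0108). Col4a2 also passed without vehicle array 2, the lowest of its group (-1.29, adjusted p = 0.00631). The dimmer Col4a1 probe set had overlapping groups and did not pass (-0.48, adjusted p = 0.278).

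In RefSeq (GRCr8) the start sites of Col4a1, on the plus strand, and Col4a2, on the minus strand, are 77 bases apart. The 76 bases between them, chr16:84885521-84885596, are shown on the plus strand because both genes are transcribed away from this stretch and had differences of the same sign. Capitals mark a match to GGGCGG, a GC box, on either strand:
Col4a1-Col4a2 interval: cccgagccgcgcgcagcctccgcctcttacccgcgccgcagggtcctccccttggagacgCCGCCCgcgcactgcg
This interval is 78.9% G or C and holds 1 GC box. It holds no match to TGANTCA (AP-1), CCGGAA (ETS), GCGTGGG (Egr core), CCAAT or TATAAA.

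Of the tissue-restricted type IV chains, Col4a5 read 5.93, 5.74 and 6.66 in vehicle and 4.67, 4.89 and 4.88 after tamoxifen. It fell by 1.29 ± 0.24 from a low signal, to 40.8% of vehicle (adjusted p = 0.00924), with the call kept without any single array. Col4a6, its partner in another type IV network, read 5.55, 5.26 and 5.23 in vehicle and 5.47, 5.6 and 5.46 after tamoxifen (0.16 ± 0.11, adjusted p = 0.363). Col4a4 read 4.66, 4.87 and 4.75 in vehicle and 4.70, 4.76 and 4.87 after tamoxifen (0.01 ± 0.10, adjusted p = 0.936). The means of all 3 of these chains lay below the median signal, and the groups overlapped for Col4a4 and Col4a6.

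Type VI collagen forms beaded filaments next to basement membranes, and none of its 5 measured chains passed. Col6a1 read 7.61, 7.58 and 9.52 in vehicle and 7.56, 7.14 and 7.59 after tamoxifen, so that vehicle array 3 alone stood high. The difference was -0.81 ± 0.51 (adjusted p = 0.319) and, without vehicle array 3, -0.17 ± 0.16 (0.553). Col6a3 read 6.59, 6.82 and 5.91 in vehicle and 7.15, 6.90 and 6.63 after tamoxifen (0.46 ± 0.25, adjusted p = 0.249), with vehicle array 3 lowest. Col6a2, which joins Col6a1 and Col6a3 in the trimer, read 5.94, 5.81 and 6.05 in vehicle and 5.90, 5.70 and 5.91 after tamoxifen (-0.09 ± 0.11, adjusted p = 0.591). The other Col6a2 probe set read 5.57, 5.28 and 6.59 in vehicle, again highest on array 3, and had a difference of -0.48 (adjusted p = 0.340). Col6a5 read 5.54, 5.37 and 5.39 in vehicle and 5.64, 5.64 and 5.32 after tamoxifen (0.10 ± 0.12), and Col6a6 read 4.25, 4.58 and 4.49 in vehicle and 4.31, 4.20 and 4.46 after tamoxifen (-0.12 ± 0.12). Groups overlapped for each of the 5 genes.

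The fibril-associated chains coat fibrils and link them to other matrix. Of these, 5 of 9 fell while 1 rose, where 17.3% of all genes fell and 13.9% rose. Col14a1 read 12.07, 11.51 and 12.00 in vehicle and 10.11, 9.29 and 8.79 after tamoxifen. It fell by 2.47 ± 0.33, to 18.1% of vehicle (adjusted p = 0.00328), and the second probe set fell by 2.34 (adjusted p = 0.00737). Col12a1, a close relative, read 10.60, 10.09 and 10.15 in vehicle and 8.52, 8.04 and 8.42 after tamoxifen. It fell by 1.95 ± 0.18, with the smallest adjusted p of the 52 genes (0.00102), though 2 dimmer probe sets (-0.40 and -0.33, adjusted p = 0.123 and 0.283) did not pass. By the probe set of highest mean for both genes, the groups were more than 1 log2 unit apart on every pair of arrays. The groups of the 2 dimmer Col12a1 probe sets overlapped.

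Type IX collagen, best known from cartilage, decorates fibrils as a trimer of 3 different chains. Col9a3 read 11.32, 11.09 and 10.96 in vehicle and 10.18, 9.83 and 9.64 after tamoxifen, a fall to 42.3% (-1.24 ± 0.16, adjusted p = 0.00299). Col9a2 read 7.28, 7.18 and 7.19 in vehicle and 6.75, 6.32 and 6.75 after tamoxifen, a smaller fall (-0.61 ± 0.14, adjusted p = 0.0186). The Col9a2 call was lost without both arrays numbered 1 (adjusted p = 0.0585) or both numbered 3 (0.07). It was also lost with adjustment for the 3' minus 5' difference (0.0524). Col9a1, the remaining chain, lay at 4.17 to 4.39 on all 6 arrays and differed by -0.06, and Col19a1, another dim chain of the class, by -0.02. Col16a1 read 10.25, 10.13 and 10.75 in vehicle and 9.55, 9.56 and 9.96 after tamoxifen. Col16a1 fell by 0.68 ± 0.19 (adjusted p = 0.0447), a call that ended on omission of either of vehicle arrays 1 and 3 or of tamoxifen arrays 1 and 2 (0.0586 to 0.140).

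Col20a1 read 9.63, 9.52 and 8.63 in vehicle and 8.42, 8.52 and 7.44 after tamoxifen. Both arrays of experiment 3 were low, the differences within experiments were -1.20, -1.0 and -1.20, and the adjusted p was 0.00204 with the block and 0.0685 without. Omitting vehicle array 3 gave 0.0334. Col22a1, a collagen of tissue junctions, went the other way at low signal: 5.0, 4.69 and 4.64 in vehicle and 5.45, 6.0 and 5.64 after tamoxifen (0.92 ± 0.17, adjusted p = 0.00974). Its tamoxifen arrays were all above its vehicle arrays, and its mean lay below the median signal.

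**Figure D3:**
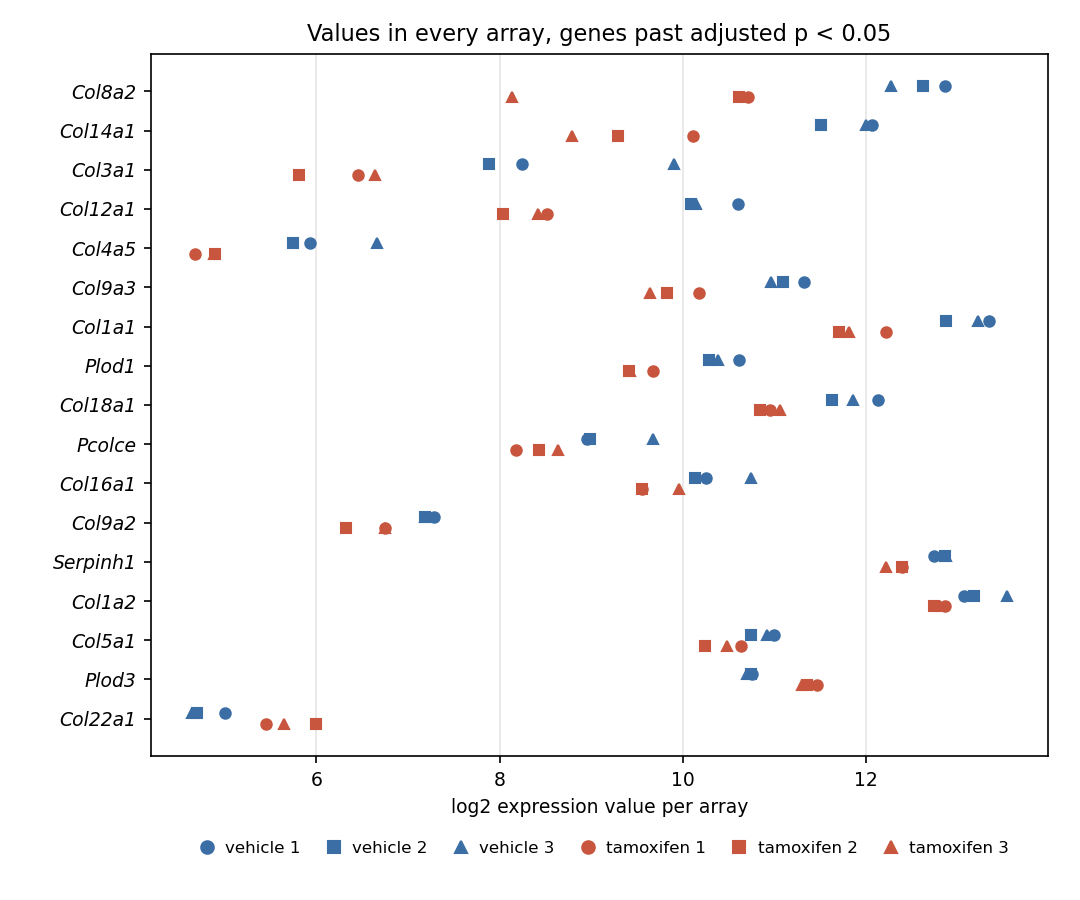
Log2 expression value on each of the 6 arrays (horizontal axis) for the 17 genes past an adjusted p of 0.05, ordered by difference, with vehicle in blue, tamoxifen in red and 1 symbol per experiment. By the probe set of highest mean, the groups do not overlap for any of the 17 genes. The genes were selected by adjusted p, which favours separated groups, so the separation adds no evidence. Of all genes, 25.4% are separated with tamoxifen lower and 23.7% with tamoxifen higher. Tamoxifen array 3 lies far below the other tamoxifen arrays for Col8a2 (8.14 against 10.71 and 10.61).

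The short-chain type VIII collagen builds hexagonal sheets under some endothelia and around vessels. Col8a2 had the largest fall among the brightest probe sets of the members on all 6 arrays, though not without tamoxifen array 3. It read 12.86, 12.62 and 12.28 in vehicle and 10.71, 10.61 and 8.14 after tamoxifen. The difference was -2.77 ± 0.67, or 14.7% of vehicle (adjusted p = 0.0248), and -1.93 without tamoxifen array 3, the lowest. The call was lost without any of the 3 vehicle arrays (adjusted p = 0.0517 to 0.0673) and without both arrays numbered 1 (0.0581). Its partner Col8a1 read 5.05, 4.86 and 5.17 in vehicle and 5.28, 5.26 and 5.54 after tamoxifen (0.34 ± 0.12, adjusted p = 0.1). Col10a1, the chain of hypertrophic cartilage, differed by 0.03.

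Col18a1, the basement membrane collagen whose end fragment is endostatin, read 12.13, 11.63 and 11.86 in vehicle and 10.95, 10.84 and 11.06 after tamoxifen. It fell to 52.7% (-0.93 ± 0.14, adjusted p = 0.00505), and the other probe set fell by 0.82. Col15a1, its relative, read 6.64, 6.75 and 8.23 in vehicle and 6.35, 6.62 and 6.68 after tamoxifen (-0.66 ± 0.41, adjusted p = 0.306). Without vehicle array 3 the Col15a1 difference was -0.15 (adjusted p = 0.508). Col7a1, the anchoring fibril chain of skin, read 10.43, 9.83 and 9.07 in vehicle and 9.37, 9.28 and 8.44 after tamoxifen; the groups overlapped, but each experiment went down (-0.75 ± 0.39, adjusted p = 0.221; 0.0130 with the block). The 4 transmembrane chains Col13a1, Col17a1, Col23a1 and Col25a1 were all below the median signal, with differences of -0.09 to 0.11. Col26a1, also below it, had 0.22.

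**Figure D4:**
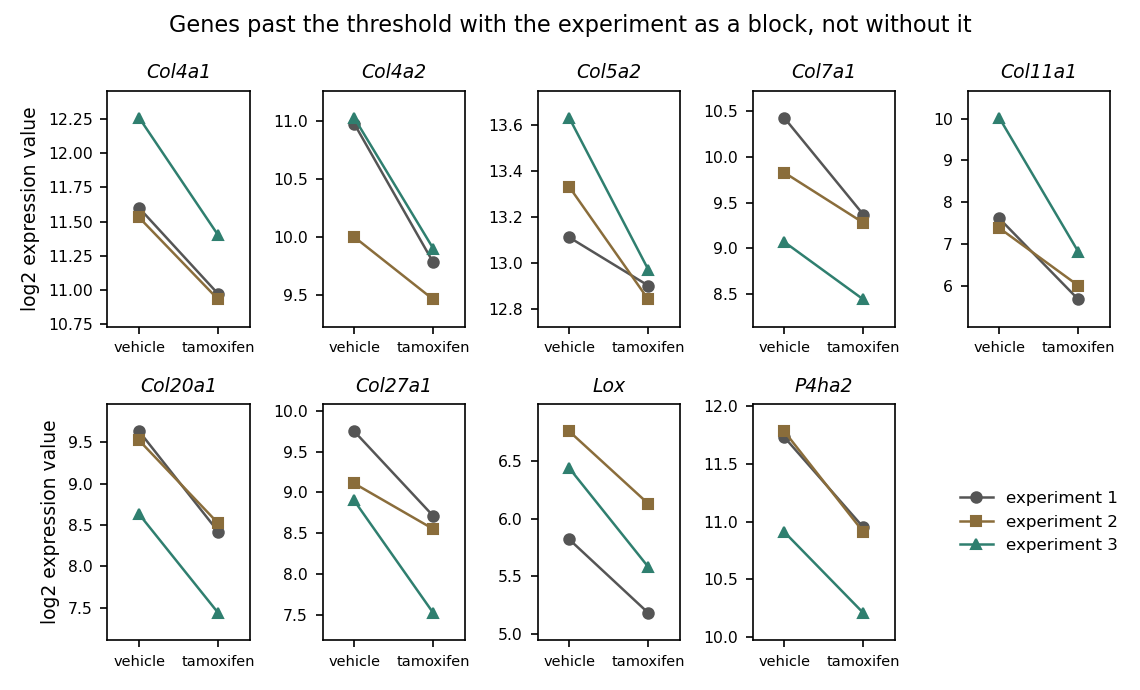
Log2 expression value (vertical axis, separate scale per panel) in vehicle and tamoxifen, with a line joining the arrays of each experiment, for the 9 genes that passed an adjusted p of 0.05 when arrays were paired by number and did not pass in the unpaired fit of all 6 arrays. Every line goes down; for P4ha2 the differences within experiments are -0.77, -0.87 and -0.69 while each array of experiment 3 is below the other arrays of its own treatment.

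Prolyl 4-hydroxylase makes the hydroxyprolines that keep the triple helix stable at body temperature, and P4ha1 and P4ha2 encode its alternative catalytic subunits. P4ha1 read 10.84, 10.50 and 10.99 in vehicle and 10.35, 10.36 and 10.56 after tamoxifen (-0.35 ± 0.14, adjusted p = 0.133), and its groups overlapped. Among the alternative fits P4ha1 passed only without vehicle array 2 (-0.49, adjusted p = 0.0402). It did not pass with the block (0.0766) or without both arrays numbered 1 (-0.28, 0.396). P4ha2 read 11.73, 11.78 and 10.91 in vehicle and 10.95, 10.91 and 10.21 after tamoxifen. That difference (-0.78 ± 0.30, adjusted p = 0.107) passed with the block (0.00444) and without vehicle array 3 (-1.06, 0.0311), while the dimmer probe set gave -0.12 (0.666). Neither gene is counted among the 15 that fell.

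The lysyl hydroxylases moved apart. Plod1, which acts on lysines of the helix, read 10.62, 10.29 and 10.39 in vehicle and 9.67, 9.41 and 9.42 after tamoxifen. It fell to 52.2% (-0.94 ± 0.12, adjusted p = 0.00303). Plod3, which also attaches sugars to hydroxylysine, read 10.76, 10.75 and 10.70 in vehicle and 11.47, 11.36 and 11.30 after tamoxifen. It rose 1.56-fold (0.64 ± 0.09, adjusted p = 0.00318), with the 3 vehicle arrays within 0.06 log2 units of each other. Both calls were kept without any single array. Plod2, which hydroxylates the telopeptides, read 8.63, 8.47 and 9.92 in vehicle and 8.95, 8.86 and 9.23 after tamoxifen (0.01 ± 0.37, adjusted p = 0.993). Leaving out vehicle array 3 gave 0.46 ± 0.14 for Plod2 (adjusted p = 0.0767).

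Upstream sequences of Plod1 and Plod3 are shown because these related enzymes went in opposite directions. Each is the 150 bases before the RefSeq start site (GRCr8), 5′ to 3′ on the gene's own strand, which is minus for both: chr5:163650738-163650887 for Plod1 and chr12:25323632-25323781 for Plod3. Capitals mark matches on either strand to GGGCGG (GC box) or GCGTGGG (Egr core):
Plod1: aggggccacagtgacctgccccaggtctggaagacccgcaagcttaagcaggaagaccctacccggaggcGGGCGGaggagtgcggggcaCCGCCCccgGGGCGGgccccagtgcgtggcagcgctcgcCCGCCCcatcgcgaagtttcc
Plod3: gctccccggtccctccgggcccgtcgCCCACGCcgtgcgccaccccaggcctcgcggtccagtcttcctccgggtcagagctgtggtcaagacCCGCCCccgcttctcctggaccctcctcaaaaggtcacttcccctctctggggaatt
Plod1 held 4 GC boxes in this stretch, and Plod3 held 1 GC box and 1 Egr core. The other motifs searched were not found there. A match is a description of the letters and shows no binding.

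Over 250 bases upstream, 40 of the 52 genes had a RefSeq promoter. GGGCGG was present in 24 of these 40 (60.0%) and in 30.5% of all 33469 promoters, beside a median G and C content of 60.2% against 51.2%. The 33469 promoters were not limited to genes on the array or to 1 promoter a gene, while each collagen gene had 1. The 2 sets are therefore unlike, for this and the following motifs. GCGTGGG was present in 5 (12.5%, against 3.68%), CCGGAA in 2 (5%, against 12.6%) and TGANTCA in 1 (2.50%, against 6.34%). CCAAT was present in 9 (22.5%, against 34.0%) and TATAAA in 4 (10%, against 12.9%).

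Serpinh1 encodes Hsp47, the chaperone specific to collagen. It read 12.74, 12.86 and 12.88 in vehicle and 12.40, 12.39 and 12.22 after tamoxifen, with little spread in either group. It fell to 71.1% (-0.49 ± 0.09, adjusted p = 0.0107), and the second, much dimmer probe set fell by 0.31 (adjusted p = 0.0383). Pcolce, which enhances removal of the carboxyl propeptide, read 8.96, 8.99 and 9.68 in vehicle and 8.18, 8.43 and 8.64 after tamoxifen (-0.79 ± 0.22, adjusted p = 0.0415). The Pcolce call was lost without any 1 array except vehicle array 1 (adjusted p = 0.0541 to 0.120). Bmp1, the propeptide protease itself, read 7.93, 8.22 and 8.23 in vehicle and 8.12, 7.93 and 8.01 after tamoxifen by the probe set of higher 6-array mean (-0.11 ± 0.11, adjusted p = 0.563). The other Bmp1 probe set read 8.77, 8.08 and 8.08 in vehicle and 7.70, 7.66 and 7.61 after tamoxifen and fell by 0.66 (adjusted p = 0.0488), so the probe sets disagree.

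Lysyl oxidases form the aldehydes from which cross-links arise, and none of the 3 measured passed. Lox read 5.82, 6.76 and 6.44 in vehicle and 5.18, 6.13 and 5.58 after tamoxifen (-0.71 ± 0.31, adjusted p = 0.152; 0.00667 with the block). Its groups overlapped, while the differences within experiments were -0.64, -0.63 and -0.86, and the dimmer probe set gave -0.19 (adjusted p = 0.694). Loxl1 read 12.28, 12.46 and 11.93 in vehicle and 12.25, 12.03 and 11.08 after tamoxifen (-0.43 ± 0.31, adjusted p = 0.378). Loxl2 read 9.41, 10.66 and 9.52 in vehicle and 10.06, 10.12 and 8.77 after tamoxifen (-0.21 ± 0.46, adjusted p = 0.791). The Loxl2 differences within experiments were 0.65, -0.54 and -0.75 and had no common sign.

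Of 17 called genes, 11 kept the call without any single array: Col1a1, Col4a5, Col9a2, Col9a3, Col12a1, Col14a1, Col18a1, Col22a1, Plod1, Plod3 and Serpinh1. Of 19 genes with several probe sets, 4 had all past the threshold, 5 had some, 10 had none, and 0 had calls in opposite directions. Among the 74 probe sets 21 fell and 2 rose, where 12.9% and 11.5% of all probe sets did. The 18 genes below the median signal that did not pass had differences of -0.71 to 0.34, and low signal there can be background.

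Chains of one trimer, and related enzymes, were compared for unequal change by an exact two-sided permutation test of the within-array difference of 2 genes. With 3 arrays a group this test cannot go below 0.1, and over the 16 pairs measured no adjusted p was below 0.229, so no pair passed. The change of Col1a1 exceeded that of Col1a2 by -0.77 log2 units (exact p = 0.1), with -0.92, -0.71 and -0.68 in experiments 1 to 3. Col9a2 and Col9a3 differed in change by 0.63 (0.61, 0.40 and 0.88 by experiment). Bmp1 and Pcolce differed by 0.68 (0.96, 0.26 and 0.82), and both pairs had an exact p of 0.1. The Bmp1 and Pcolce difference depends on the Bmp1 probe set. The one used changed by -0.11 and the other by -0.66, near the -0.79 of Pcolce. By contrast Col4a1 and Col4a2 differed by 0.26 (exact p = 0.700) and Col5a1 and Col5a2 by 0.01 (exact p = 1.00), with different signs between experiments. Within-array differences did not overlap between groups for 7 of the 16 pairs, which is the pattern that gives the exact p of 0.1. These include the pairs Col4a5 and Col4a6, Col8a1 and Col8a2, Col9a1 and Col9a2, and Col11a1 and Col11a2. In those pairs not both genes reached the median signal, and low signal can be background.

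Other genes of collagen metabolism did not share the downward balance of counts. Of 65 measured genes for folding, export, trimming, fibril binding, receptors and degradation, 10 rose (15.4%) and 12 fell (18.5%), close to the 13.9% and 17.3% of all genes. Their median difference was -0.01. In the endoplasmic reticulum lists 5 of 18 folding and modification genes rose and 3 fell, and of 10 export genes 1 rose and 2 fell. Of 6 trimming and cross-linking genes 1 fell, of 12 fibril-binding genes 1 rose and 1 fell, of 7 receptor genes 3 fell, and of 12 degradation genes 3 rose and 2 fell.

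Colgalt2, which adds galactose to hydroxylysine, rose from a signal below the median of all probe sets, which can be background, from 5.24, 5.19 and 5.16 to 6.54, 6.87 and 8.18 (2.00 ± 0.39, adjusted p = 0.0121). The lysosomal protease gene Ctsl rose by 1.55 ± 0.19, and Timp1, an inhibitor of matrix metalloproteases, by 1.48 ± 0.12. Thbs2, a matricellular protein gene, rose by 1.51 ± 0.44 (adjusted p = 0.0475), a call lost without any 1 array except vehicle array 3 (adjusted p = 0.0852 to 0.127) and without both arrays numbered 1 (difference 1.04, adjusted p = 0.187). Ddr1, a receptor kinase that binds collagen, fell from 10.22, 9.99 and 10.33 to 8.84, 8.64 and 8.32 (-1.58 ± 0.16, adjusted p = 0.00128). Pepd, which splits the proline dipeptides left by collagen breakdown, fell by 1.25 ± 0.14, and Sparc, a collagen-binding glycoprotein, fell by 1.14 ± 0.13. The gelatinase gene Mmp2 fell by 1.10 ± 0.31 (adjusted p = 0.0422), and omitting vehicle array 3 (-0.77, adjusted p = 0.0529), tamoxifen array 1 (0.115) or tamoxifen array 2 (0.136) ended that call.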

How the data were processed

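RNA of 6 cultures was measured on Affymetrix rat arrays, 1 array a culture. The authors deposited 1 log2 value for each probe set and array, made with RMA (a method of background correction, normalisation across arrays and probe summary), per the submitters' processing notes, which give no version. RMA compresses low values, and there are no detection calls. Precision is limited by how many arrays there are.

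The 57 manufacturer controls were left out. Of the 31042 other probe sets, 20826 had 1 gene symbol in the platform annotation, 436 several and 9780 none listed; all 52 collagen genes matched RefSeq by Entrez identifier. Where a gene had several probe sets, the one with the highest mean signal over the 6 arrays stood for it. A 2-group model without covariates (lmFit, eBayes; limma 3.58.1, R 4.3.3) compared tamoxifen with vehicle on all 6 arrays. Tests were two-sided, p-values were adjusted over all 31042 probe sets by Benjamini-Hochberg, and 0.05 was the threshold. SE is the model's standard error.

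Deviations from group means of arrays with the same experiment number correlated at 0.26, 0.20 and 0.28 over all probe sets, so the numbers were treated as pairs in a separate fit with a replicate block. Other alternatives left out arrays, changed scaling, variance model, dim probe set filter, array weights, threshold, minimum fold or probe set rule, or adjusted for the 3' minus 5' signal. Leaving out both arrays numbered 3 was chosen after seeing the data.

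Any collagen gene could be named; every array's value is given for genes past the threshold, for types I, III, IV, V and VI and for enzymes, and for some others shown for their block or array result. Of related genes, the 4 largest called changes each way were named in the report; those in the closing section were chosen after their values were seen. The members, lists, pairs and motifs were chosen with earlier results of these data known. Promoters are from RefSeq (GRCr8); no genome or protein sequence was used here. In 10 simulations with 200 of 31042 probe sets changed, 3.2% of changes of 0.5 log2 units were called. The figure was 69% for changes of 1, 95.2% for 2 and 98.6% for 4, and 4.99% of all calls were false. In the data 24.4% of probe sets were called, a far larger share than was changed in the simulations. The adjusted p depends on that share, so these rates need not hold for the real comparison. The simulations also held no effect of experiment.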

Additional observations from a re-analysis of the deposited data

How the results depend on the processing

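No collagen gene called in any of the fits changed direction in another. The number of falling collagen genes (15) was 23 with the replicate block, 8 without both arrays numbered 1, 7 (13.5%) with the unmoderated test or an adjusted p of 0.01, where 7.75% and 8.19% of all genes fell, and 2 (3.85%, against 2.75% of all genes) in the test against a fold of 1.5. Without single arrays it was 10 to 13 of 52. With the filter on dim probe sets it was 19 of the 32 collagen genes that were kept. Under the other alternatives it was 13 to 18 of 52. Apart from the shares printed in this report, the shares of all genes or probe sets in the alternative fits are not given. Counts without such a share show no excess over the background. The number of rising genes (2) was 1 with the unmoderated test or without both arrays numbered 3. It was also 1 with the filter on dim probe sets, which removed Col22a1 before testing. It was 0 in limma's test against a fold of 1.5, where 1 had an unadjusted p under 0.05, and 2 without any single array. Falling probe sets (21) numbered 10 with the unmoderated test or an adjusted p of 0.01, 4 against the fold and 13 to 22 without single arrays. Rising probe sets (2) numbered 1 with the unmoderated test and 0 against the fold (1 at an unadjusted p under 0.05). They also numbered 1 with the dim filter, which removed the Col22a1 probe set before testing. Related genes that rose (10) numbered 6 without both arrays numbered 1 or with the unmoderated test, 5 at an adjusted p of 0.01, 3 against the fold and 6 to 9 without single arrays. Those that fell (12) numbered 6, 7 and 3 with the unmoderated test, the 0.01 threshold and the fold, and 7 to 12 without single arrays. Partner pairs with separated groups (7) were 7 to 11 without single arrays, and 14 went the same way in all 3 experiments when paired, where the sign-flip test cannot pass. With 3 arrays a group the smallest called difference of a collagen gene was -0.44 (Col5a1).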

Other observations

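The prolyl 3-hydroxylase family, whose members were named here after their values were seen, split. P3h1 read 9.22, 9.38 and 9.26 in vehicle and 8.68, 8.68 and 8.65 after tamoxifen (-0.62 ± 0.08, adjusted p = 0.00315, limma), and P3h3 fell by 0.84 ± 0.15 (adjusted p = 0.00930). P3h4, a relative that forms a complex with P3h3, rose by 0.61 ± 0.10 (adjusted p = 0.00566). Crtap, below the median signal, and Ppib, which form a complex with P3h1, had differences of 0.06 ± 0.09 and -0.01 ± 0.10 (adjusted p = 0.700 and 0.937). P4hb, the beta subunit that P4ha1 and P4ha2 share, lay at 11.92 to 12.08 on all 6 arrays, with a difference of -0.03 ± 0.08 (adjusted p = 0.850).

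Other related genes were also chosen after their values were seen. Aldh18a1, the first enzyme of proline synthesis from glutamate, rose by 1.39 ± 0.16 (adjusted p = 0.00209). The export genes Sec24d and Mia3, of which Mia3 encodes the cargo receptor TANGO1 for procollagen, fell by 0.77 ± 0.13 and fell by 0.58 ± 0.16 (adjusted p = 0.00695 and 0.0446). Loxl3, a lysyl oxidase outside the list above, fell by 0.99 ± 0.12 (adjusted p = 0.00232).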
